A study of Mus musculus with 84 samples.

Results

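The chromatin at 8 adipogenic transcription factor genes was examined in adipocyte nuclei from lean, obese and formerly obese mice. The genes were Pparg, Cebpa, Cebpb, Cebpd, Ebf1, Ebf2, Zfp423 and Zfp467, taken by name from 21851 protein-coding genes. For each of 84 libraries, peaks were read at the promoter (2000 bp either side of every protein-coding start site), over the gene body and over the 50 kb on either side. All coordinates are on GRCm38 and the gene models are those of GENCODE.

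CUT&Tag, in which an antibody-tethered transposase cuts and tags DNA beside a histone mark, had been run for H3K4me3 (21 libraries), H3K27ac (21), H3K4me1 (22) and H3K27me3 (20). Nuclei came from epididymal fat of AdipoERCre x NuTRAP mice, controls included, whose background the labels give as C576BL6 and the study's methods as C57BL/N. In these animals tamoxifen activates a Cre driven by the Adipoq promoter, and the biotin-labelled nuclei are then pulled down, so a cell whose Cre never acted carries no label. C mice ate chow until 18 weeks of age and H mice had a high-fat diet for the last 12 of those weeks. CC_s mice ate chow until 26 weeks of age, and HC mice had 12 weeks of high-fat diet followed by 8 weeks of chow. In the longer cohort, CC_l mice ate chow until 31 weeks, and HH mice of that age had spent 25 weeks on the high-fat diet. CCC mice ate chow until 39 weeks, and HHC mice returned to chow for 8 weeks after 25 weeks on the high-fat diet. Of the 32 combinations of mark and diet, 20 had 3 libraries and the others had 2. Obese mice (H and HH) were compared with C and CC_l, mice after weight loss (HC and HHC) with CC_s and CCC, and all 4 diet groups with their controls for the effect of diet history.

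PPARG and C/EBPA form the core of adipocyte identity: they bind together at most adipocyte genes and maintain each other's expression. C/EBPB and C/EBPD act earlier and switch on both. EBF1 and EBF2 open and maintain adipocyte enhancers, with EBF2 best known from brown and beige fat. ZFP423 marks commitment of preadipocytes and keeps white adipocytes from turning beige, and ZFP467 is a zinc-finger protein that favours adipogenesis. H3K4me3 marks active promoters, H3K27ac active promoters and enhancers, H3K4me1 enhancers, and H3K27me3 is the mark laid down by Polycomb at silent genes.

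Promoter sequences in the RefSeq table (GRCm38.p6) covered 6 of the 8 genes, Cebpd and Ebf2 being the others. The promoter of the adipocyte-restricted Pparg2 transcript is shown because its marking is compared with that of the upstream Pparg starts, and those of Cebpa and Zfp423 for their contrasting composition. Capitals mark matches on either strand to a C/EBP motif (TTGCNNAA), an EBF core (CCCNNGGG), a nuclear receptor half-site (AGGTCA) or a TATA box (TATAAA). No matches overlapped in the sequences shown. The promoters are the 250 bases before the start, read in the direction of transcription.
Pparg2 promoter, chr6:115421816-115422065, plus strand: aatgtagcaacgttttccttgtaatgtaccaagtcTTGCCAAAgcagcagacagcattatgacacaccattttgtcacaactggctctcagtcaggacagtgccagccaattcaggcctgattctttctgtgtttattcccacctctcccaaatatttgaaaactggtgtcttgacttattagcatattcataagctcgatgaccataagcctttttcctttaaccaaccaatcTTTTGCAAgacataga
Cebpa promoter, chr7:35119043-35119292, plus strand: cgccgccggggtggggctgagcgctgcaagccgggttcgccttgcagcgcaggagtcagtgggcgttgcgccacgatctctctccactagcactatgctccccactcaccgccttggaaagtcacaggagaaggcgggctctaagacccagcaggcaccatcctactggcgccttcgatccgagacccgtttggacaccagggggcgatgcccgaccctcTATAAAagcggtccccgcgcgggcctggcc
Zfp423 promoter, chr8:87959596-87959845, minus strand: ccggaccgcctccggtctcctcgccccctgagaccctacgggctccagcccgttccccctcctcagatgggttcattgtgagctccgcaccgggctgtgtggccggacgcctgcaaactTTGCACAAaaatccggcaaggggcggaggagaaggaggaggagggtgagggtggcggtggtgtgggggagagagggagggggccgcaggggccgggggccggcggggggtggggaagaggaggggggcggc

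The Pparg2 promoter held 2 matches to the C/EBP motif and only 2 CpG dinucleotides, against a median of 6 over 32841 promoters; 81.2% of those had as many CpGs or more. The upstream Pparg promoter of the first start site held 38 CpGs and that of Cebpb 41, counts reached by 1.88% and 1.09% of promoters. Cebpa (22 CpGs, with a TATA match beginning 30 bases before the start) and Zfp423 (18 CpGs, 1 C/EBP match) were intermediate. The C/EBP motif occurred in 9.57% of all promoters, the EBF core in 11.8%, the half-site in 14% and the TATA match in 12.4%, so a match by itself is common.

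Peaks of H3K4me3 stood at the promoters of all 8 genes in 21 of 21 libraries, a state shared with 39.2% of protein-coding genes. Their peaks were broad. Pparg had a median H3K4me3 promoter peak width of 14685 bp (the summed width of all peaks touching its promoter windows), and 0.124% of genes had a mean at least as wide. Pparg has 2 separate windows, Zfp423 has 3 and each other gene has 1, so the Pparg and Zfp423 widths can add peaks from separate places. The H3K4me3 peaks over the single Pparg starts had median widths of 7197 to 9109.5 bp. The medians of the other genes ran from 4063 bp at Zfp467 to 6905 bp at Ebf2, with 1.3% to 6.26% of genes as wide or wider by their means. H3K27ac was present at Pparg, Cebpa, Ebf1, Zfp423 and Zfp467 in 21 of 21 libraries, at Cebpb in 20, and at Cebpd and Ebf2 in 19.

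**Figure D1:**
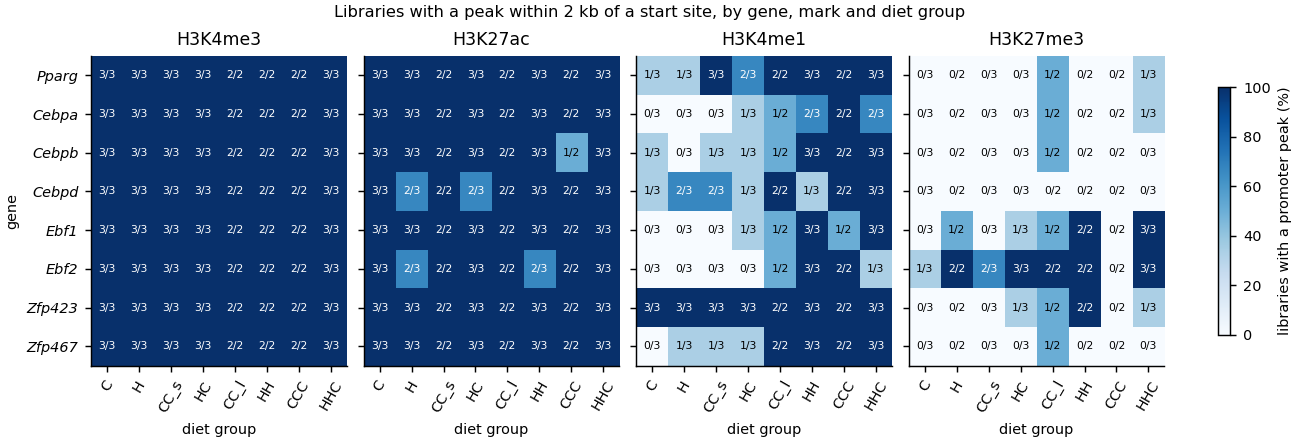
Each cell gives the number of libraries with a peak within 2 kb of a start site over the number of libraries, for the 8 genes (rows) and 8 diet groups (columns), one panel for each mark, with darker blue for a larger percentage. H3K4me3 fills its panel, whereas H3K27me3 is found mainly at Ebf2, Ebf1 and Zfp423.

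H3K4me1 and H3K27me3 separated the genes more clearly. Zfp423 carried promoter H3K4me1 in 22 of 22 libraries, Pparg in 17, Cebpd in 14, Zfp467 in 13, Cebpb in 12, Ebf1 in 9, Cebpa in 8 and Ebf2 in 7. At Zfp423 all 22 libraries had H3K4me1 within 2000 bp of an internal start 63860 bp into the gene, 17 of 22 had a peak over that start and none of 21 had H3K4me3 over it. At the first Zfp423 start no library had H3K4me1 over the start, although 12 of 22 had it within 2000 bp. H3K27me3 was called at Ebf2 in 15 of 20 libraries, at Ebf1 in 8, at Zfp423 in 5, at Pparg and Cebpa in 2, at Cebpb and Zfp467 in 1, and at Cebpd in 0. A promoter without a peak was not among the top 1% of signal blocks of its library, which does not show that the mark was absent.

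The 3 Pparg start sites behaved differently. H3K4me3 covered the start 1341 bp into the gene in 21 of 21 libraries, the first start in 18 and the Pparg2 start, 61115 bp into the gene, in 19. H3K27ac covered them in 19, 4 and 19 of 21 libraries, but lay within 2000 bp of them in 20, 20 and 19. H3K4me1 lay within 2000 bp of the Pparg2 start in 15 of 22 libraries and of the first start in 3. It lay over the Pparg2 start in 8 and over the first start in 0. H3K27me3 was never within 2000 bp of the Pparg2 start (0 of 20) and was near the upstream pair in 2. H3K4me3 lay within 2000 bp of the CpG-poor Pparg2 start in 10 of 10 control and 9 of 11 diet libraries, 1 HC and 1 HHC library being without it.

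Several features of the libraries bear on all comparisons. Libraries had 11249 to 46397 peaks covering 8.54 to 133 Mb, and no 2 libraries were identical. H3K27ac peaks covered 17 Mb less in obese mice than in controls (two-sided exact permutation test, p = 0.035). By cohort, they covered 24.4, 9.71 and 9.60 Mb in H against 49.0, 47.3 and 42.8 Mb in C. Median H3K27ac peak widths were 477 to 801 bp in H and 1372 to 1765 bp in C. HH libraries covered 76.7, 85.8 and 80.4 Mb against 90.1 and 76.2 Mb in CC_l, with overlap. H3K27ac CCC replicate 3 covered 20.9 Mb against 94.3 Mb in CCC replicate 1. In the first H3K27me3 library of CC_l, which covered 110 Mb, 7 of the 8 promoters had a peak. For 4 H3K4me3 libraries the title and the treatment label disagree about the diet: replicate 2 of CC_l, both libraries of HH and replicate 3 of CCC. Titles were used, and results that turn on this are given both ways. Of the adipocyte markers Adipoq, Plin1, Cidec, Lipe, Pnpla2, Fabp4, Cfd and Lep, a median of 100% (range 50% to 100%) had promoter H3K4me3. Promoter H3K4me3 was also found at markers of other cells, and at 3 of 5 such lists more often with a diet history. The share of 8 macrophage markers ranged from 0% to 50% in control libraries and from 0% to 100% in diet libraries, a rise of 42.2 percentage points (exact permutation p = 0.00479). That of 6 endothelial markers ranged from 0% to 66.7% and from 0% to 100%, a rise of 41.7 points (exact permutation p = 0.00317). That of 6 lymphocyte markers ranged from 0% to 33.3% and from 0% to 100%, a rise of 36.1 points (exact permutation p = 0.0103). None of the markers in these 3 lists was without H3K4me3 in every library. The share of 6 progenitor markers differed by 8.33 points over diet history (exact permutation p = 0.453) and that of 5 mesothelial markers by -12.5 points (exact permutation p = 0.125), the latter by -28.3 points in obesity (exact permutation p = 0.05), with Pi16 and Upk3b at 0 in every library. For H3K27ac, endothelial markers rose by 29.9 points (exact permutation p = 0.022) and progenitor markers by 27.1 points (exact permutation p = 0.0372), and the other 3 lists differed by 4.17 to 24.0 points (exact permutation p = 0.0563 to 0.6). The part of these cells in the results that follow was not tested, and fewer marked cells cannot be told apart from less mark per cell.

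H3K27ac was narrower in obese mice at most of the 8 genes. Promoter peak width was lower in obese mice at 7 of the 8 genes with p below 0.05 and higher at none, whereas 14.6% of 13634 genes were called lower and 0.455% higher. The median difference over the 8 genes was -4592 bp against -339 bp over all genes tested. A fall in bp is bounded by the starting width, and these promoters were wide. By mean H3K27ac width, 0.124% (at Cebpa) to 5.51% (at Zfp467) of genes were as wide or wider. Genes entered a test only if some library compared had a peak, which held for all 8 promoters in the other marks and for 7, 5 and 7 of 8 in H3K27me3 in obesity, after weight loss and over diet history.

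Over all marks, measures and comparisons the exact permutation test gave 46 calls at the 8 genes with p below 0.05. The share of all genes called is given with each result. The diet-history comparison uses the libraries of the other comparisons, so these calls are not separate results. None passed Benjamini-Hochberg adjustment over all genes (lowest adjusted p = 0.111). In obesity and after weight loss the smallest possible p was 0.005 to 0.0167, and no gene at all passed adjustment. The absence of adjusted calls there therefore says nothing about the 8 genes in particular. With limma, 4 values passed the adjusted threshold: over diet history the H3K4me3 body coverage of Pparg (adjusted p = 0.011) and the Ebf2 promoter width of H3K4me3 (adjusted p = 0.0187) and of H3K27ac (adjusted p = 0.0497), and after weight loss the H3K4me3 body coverage of Pparg (adjusted p = 0.022). The share of all genes that passed adjustment by limma was not counted, so whether 4 is many is not known. By the permutation test, genes that passed adjustment were found over diet history: 3.59% for H3K27me3 promoter width, 3.06% for H3K4me1 and 7.84% for H3K27me3 body coverage, and 5.85% for H3K4me1 and 6.17% for H3K27me3 flank coverage.

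At Cebpa, the H3K27ac promoter width was 14308, 31084 and 7648 bp in C and 3534, 2150 and 1672 bp in H. It was 35376 and 34899 bp in CC_l and 7447, 16240 and 15356 bp in HH. Neither obese group overlapped its control, and the mean difference was -18676 bp (exact permutation p = 0.005, the smallest the design allows; adjusted p = 0.198). Only 0.0147% of genes tested, Cebpa included, fell as far or further. The fall cannot exceed the control width, and 0.124% of genes had a mean H3K27ac width as large as that of Cebpa.

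At Ebf2, the width was 7374, 8503 and 5846 bp in C and 604, 0 and 417 bp in H. It was 8536 and 9256 bp in CC_l and 0, 5727 and 5080 bp in HH, again without overlap. The mean difference was -6097 bp (exact permutation p = 0.01). At Ebf1, the width was 6206, 5600 and 7058 bp in C, 1618, 1479 and 1238 bp in H, 9114 and 9334 bp in CC_l, and 4886, 7257 and 7431 bp in HH. These groups did not overlap either, with a mean difference of -3771 bp (exact permutation p = 0.005). The calls at Cebpa, Ebf1 and Ebf2 held without any 1 library. Counted as bp of the promoter window under peaks, Cebpa (-865 bp, p = 0.07), Ebf1 (-634 bp, p = 0.095) and Cebpb (-66.7 bp, p = 0.8) missed the threshold by exact permutation.

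At Pparg, the width was 17114, 9139 and 8311 bp in C and 7008, 939 and 3330 bp in H. It was 17266 and 17453 bp in CC_l and 2103, 16081 and 14544 bp in HH. All obese libraries lay below their controls, and the mean difference was -7106 bp (exact permutation p = 0.03). Leaving out C replicate 1, H replicate 2 or 3, or either CC_l library raised p to between 0.06 and 0.138, at differences of -5708 to -7153 bp. Divided by the median width of marked promoters in each library, an alternative chosen after seeing the data, the Pparg p was 0.155, and with windows of 500 bp it was 0.05 (exact permutation).

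Cebpb, Cebpd and Zfp467 were also called. At Cebpb the difference was -8978 bp in H and -1848 bp in HH, with 532 to 1613 bp in H against 7725 to 13617 bp in C (exact permutation p = 0.02). With windows of 500 bp the sign turned, to 1545 bp. Cebpd differed by -4502 bp in H and -280 bp in HH (p = 0.025, exact permutation) and Zfp467 by -1639 and -1874 bp (p = 0.015, exact permutation). By the relative width just described Cebpd and Zfp467 were not called (p = 0.06 and 0.95, exact permutation). Without CC_l replicate 2 Cebpb and Cebpd lost their calls, and without CC_l replicate 1 Zfp467 did, at -4299, -2193 and -1181 bp. Cebpb also lost its call without HH replicate 1 (-5222 bp), and Cebpd without C replicate 2 (-2315 bp) or HH replicate 3 (-2276 bp). The Zfp467 window also holds a start site of Sspo. Zfp423, at 5031 to 7105 bp in C and 240 to 2658 bp in H, was not called (exact permutation p = 0.515), and HH (6161 to 22121 bp) overlapped CC_l (12864 and 14896 bp).

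**Figure D2:**
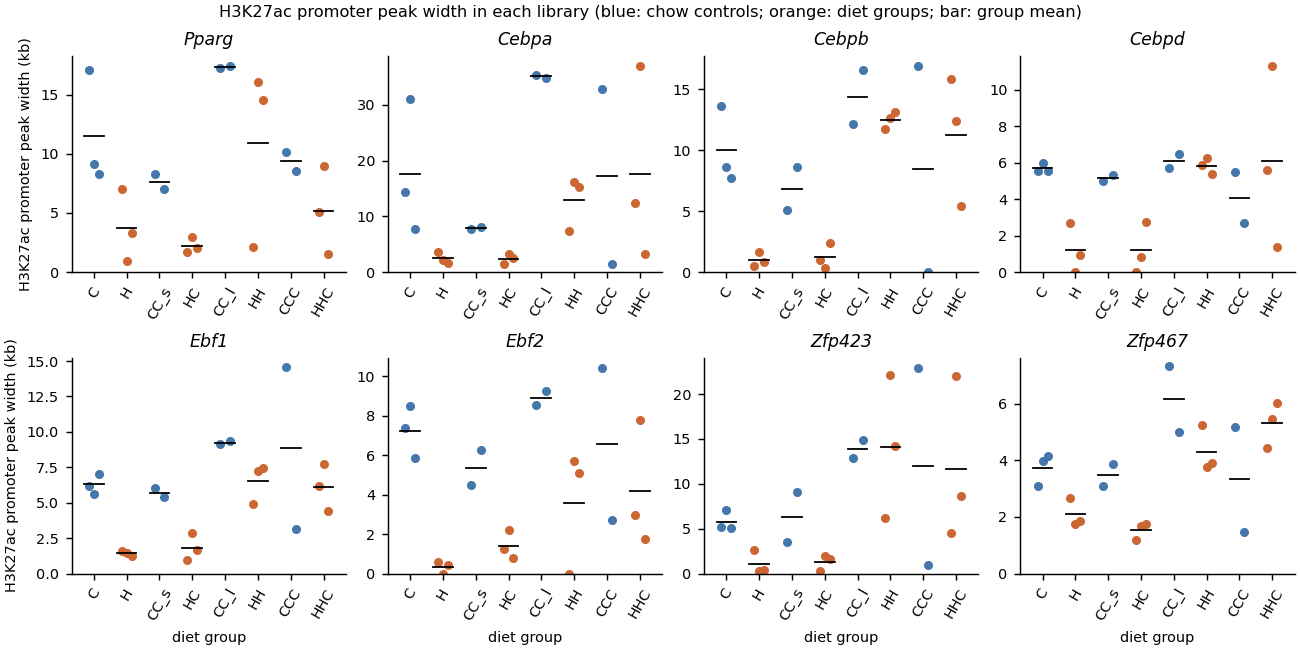
H3K27ac promoter peak width in kb in each library (points) and the mean of each group (bars) for the 8 genes, with chow controls in blue and diet groups in orange. H and HC lie low for every gene, whereas HH and HHC overlap their controls at Cebpb, Cebpd and Zfp423.

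After weight loss, Pparg was the only one of the 8 genes with a call for H3K27ac. Its H3K27ac width was 8270 and 6989 bp in CC_s and 1674, 2929 and 2059 bp in HC, then 10161 and 8572 bp in CCC and 5121, 8946 and 1488 bp in HHC. HC lay wholly below CC_s, while HHC overlapped CCC. The mean difference was -4795 bp (exact permutation p = 0.03, adjusted p = 0.903), and 0.283% of 13758 genes were called lower. The call was lost on leaving out any library of CC_s, HC or CCC, with p between 0.05 and 0.125 and differences of -4398 to -5192 bp. It was also lost with equal numbers of peaks (p = 0.05), windows of 500 bp (p = 0.1) and covered bp of the window (-1736 bp, p = 0.12), all by exact permutation, and by limma (p = 0.0678). The other genes differed in the same direction except Zfp467, with a median of -2614 bp over the 8 genes and 472 bp over all genes.

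Over all 4 comparisons, diet history went with narrower H3K27ac at Pparg (-5951 bp, p = 0.00085), Ebf2 (-4633 bp, p = 0.0015), Ebf1 (-3546 bp, p = 0.00215) and Cebpa (-10627 bp, p = 0.0481), all by exact permutation. The background was 4.8% of 14447 genes called lower. Pparg, Ebf1 and Ebf2 were below control in each of the 4 comparisons and kept their calls without any 1 library, but with windows of 500 bp Ebf1 was not called (-2800 bp, p = 0.059, exact permutation). Cebpa was 417 bp higher in HHC than in CCC, and its call was lost without any 1 of 14 libraries, the value falling to -6715 bp (p = 0.276, exact permutation) without CCC replicate 1. It was not called with windows of 500 bp (p = 0.147) or by covered bp (p = 0.178), by exact permutation. Over the 8 genes the median was -3479 bp, against 92.2 bp for all genes. The share of adipocyte markers with promoter H3K27ac was 10.4 points lower with a diet history (exact permutation p = 0.0476).

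**Figure D3:**
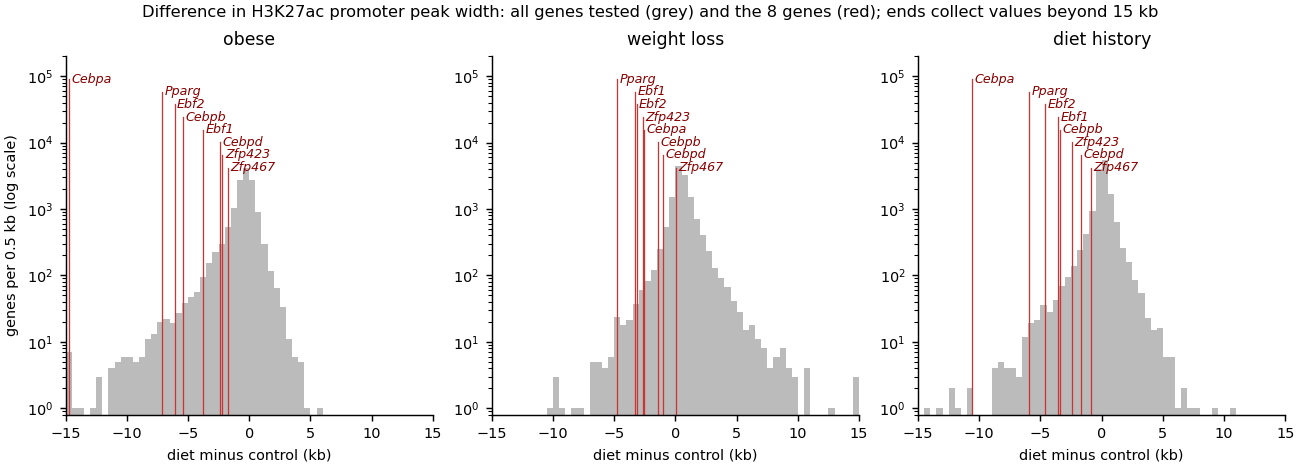
Number of genes (log scale) by the difference in H3K27ac promoter peak width, diet minus control, in kb, for the obese, weight-loss and diet-history comparisons, with the 8 genes as red lines and the outermost bars holding values beyond the axis. The 8 genes lie on the negative side in each panel except for Zfp467 after weight loss, and Cebpa in obesity is past the edge.

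H3K4me3 covered less of the Pparg body in every diet comparison. The share of the gene under H3K4me3 peaks was 12.7%, 15.4% and 14.2% in C and 7.38%, 9.11% and 6.44% in H. It was 9.26%, 9.45% and 15.6% in CC_s and 8.41%, 7.09% and 4.17% in HC. In the longer cohort it was 14.1% and 17.8% in CC_l, 12.8% and 13.7% in HH, 21.6% and 24.7% in CCC, and 10.5%, 17.7% and 7.87% in HHC. Every diet library lay below every library of its own control group. The difference was -4.58 points in obesity (exact permutation p = 0.0167, the smallest possible), -8.01 points after weight loss (p = 0.02) and -6.30 points over diet history (p = 0.00025, adjusted p = 0.124). Shares of all genes called lower were 4.17%, 2.24% and 7.48%. Leaving out any 1 library kept all 3 calls. The titles mattered: with the treatment labels the differences were 0.461 points in obesity (p = 0.9), -5.05 after weight loss (p = 0.09) and -2.29 over diet history (p = 0.289), all by exact permutation. When every library was cut to the same number of peaks, the obese and weight-loss p were 0.0667 and 0.065, and divided by the share of the genome each library covered the obese and diet-history p were 0.933 and 0.051, also by exact permutation.

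**Figure D4:**
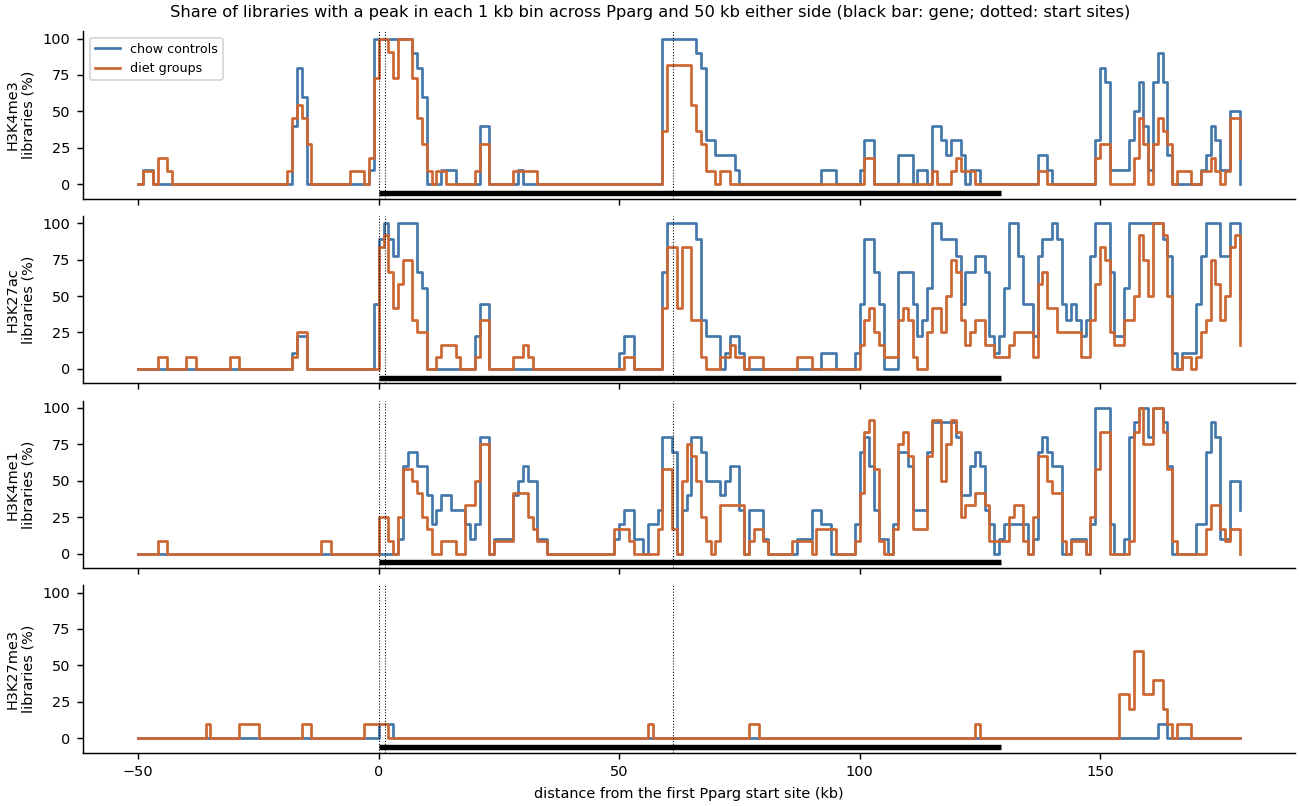
Percentage of control (blue) and diet (orange) libraries with a peak in each 1 kb bin from 50 kb before to 50 kb after Pparg, by distance from the first start site, one panel for each mark; the black bar is the gene and dotted lines are start sites. Control lines exceed diet lines at H3K27ac over the 3' part of the gene, and H3K27me3 is seen in diet libraries near 160 kb, beyond the gene end.

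H3K4me3 promoter width was likewise lower over diet history at Pparg (10288 bp against 16491 bp, difference -6203 bp, exact permutation p = 0.0065) and at Ebf2 (5273 against 7420 bp, difference -2147 bp, exact permutation p = 0.00779), with 5.41% of 15907 genes called lower. HH differed in direction: it was 1194 bp above CC_l at Pparg and 142 bp above at Ebf2. At Ebf2, the H libraries had 2220, 332 and 1372 bp against 6676, 8742 and 6549 bp in C. At Pparg, HC had 6909, 6897 and 1630 bp against 12133, 7687 and 20703 bp in CC_s, and HHC had 10673, 19208 and 2270 bp against 17051 and 22352 bp in CCC. Neither was called in obesity or after weight loss alone, and by covered bp of the window Pparg was not called over diet history (-1326 bp, p = 0.0514, exact permutation). H3K4me3 body coverage was also lower over diet history at Cebpa (-15.8 points), Zfp467 (-13.4), Cebpd (-8.00) and Ebf1 (-1.54), with exact permutation p of 0.0168, 0.0301, 0.04 and 0.0278. Divided by genome coverage Cebpd was 2.90 higher, as a ratio to that coverage, and Cebpa was not called (p = 0.576, exact permutation). With equal numbers of peaks Zfp467 differed by -1.86 points (p = 0.438) and at a stricter peak threshold by -3.05 points (p = 0.56), by exact permutation. With the treatment labels Zfp467 was 4.27 points higher and Ebf1 was not called (p = 0.46, exact permutation). The Ebf1 call was lost without CC_l replicate 2, HH replicate 2 or CCC replicate 1 (p = 0.0551 to 0.139, exact permutation), that of Cebpd without any 1 of 8 libraries and that of Zfp467 without any 1 of 5, while Cebpa kept its call.

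The obese effect on H3K4me3 promoter width differed between cohorts. The difference, 25-week minus 12-week, was positive with exact permutation p below 0.05 at Pparg, Cebpa, Cebpb, Ebf1 and Zfp423, beside 25.3% of all genes. With the treatment labels Cebpa, Cebpb and Ebf1 were not called (p = 0.233, 0.633 and 0.0667, exact permutation). Total H3K4me3 coverage, by title, went the same way. It was 28.76, 30.22 and 11.04 Mb in H against 41.03, 53.35 and 46.61 Mb in C. In HH it was 78.91 and 82.61 Mb, against 50.76 and 75.90 Mb in CC_l. The part of this coverage in the gene results was not tested. After weight loss the cohort difference was positive with exact permutation p below 0.05 for H3K4me3 at Cebpd (1.31% of genes) and for H3K27ac at Zfp467 (6.77% of genes). With the treatment labels Cebpd was not called (2080 bp, exact permutation p = 0.07).

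H3K27me3 was higher at Ebf2, the EBF family member best known from thermogenic fat. The 50 kb flanks of Ebf2 were 0%, 1.57% and 0% under H3K27me3 in CC_s and 3.09%, 0.433% and 5.66% in HC. They were 0% in both CCC libraries and 8.12%, 7.17% and 11.4% in HHC. HHC lay wholly above CCC, while HC overlapped CC_s. The weight-loss difference was 5.71 points (exact permutation p = 0.01, adjusted p = 0.284), 3.85% of genes were called higher, and the call held without any 1 library at 5.06 to 6.37 points.

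Promoter H3K27me3 at Ebf2 was also wider after weight loss. It was 0, 3506 and 1480 bp wide in CC_s, 1553, 382 and 4968 bp in HC, 0 bp in both CCC libraries, and 15005, 9231 and 8046 bp in HHC. The weight-loss difference was 5700 bp (exact permutation p = 0.04, adjusted p = 0.506; 1.13% of 9058 genes called higher), but the call was lost on leaving out any library of CCC or HHC, CC_s replicate 1 or 3, or HC replicate 3, at 4639 to 6378 bp and p up to 0.12, and with windows of 500 bp (4574 bp, exact permutation p = 0.075). Gene body coverage was 4.82 points higher (p = 0.045, exact permutation; 1.92% of genes called higher), and lost its call without any 1 of 9 libraries. In obesity Ebf2 had 4527 and 3771 bp in H against 0, 0 and 1911 bp in C, and 7744 and 8932 bp in HH against 14962 and 1289 bp in CC_l, so that the CC_l libraries lay on both sides of HH. All 10 diet libraries had promoter H3K27me3 at Ebf2, against 5 of 10 controls, but its width was not called over diet history. How many other promoters have such counts was not determined.

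Ebf1 and Ebf2 were the only promoters of the 8 to be gained or lost, meaning marked in every library of one group and in none of its control, in any mark or comparison. Both were gained for H3K27me3 in HHC, as were 1.37% of all promoters. Ebf1 had 5048, 893 and 1499 bp in HHC and 0 bp in CCC. Over all libraries Ebf1 had promoter H3K27me3 in 7 of 10 diet libraries and in 1 of 10 controls, that control being CC_l replicate 1. The Zfp423 counts were 4 of 10 and 1 of 10, with the same control library. These pooled counts were not set beside those of all promoters, and neither gene was called for H3K27me3 width over diet history. The share of adipocyte markers with promoter H3K27me3 was 14.6 points higher after weight loss (exact permutation p = 0.04), while Lipe, Pnpla2, Fabp4 and Cfd had it in no library.

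**Figure D5:**
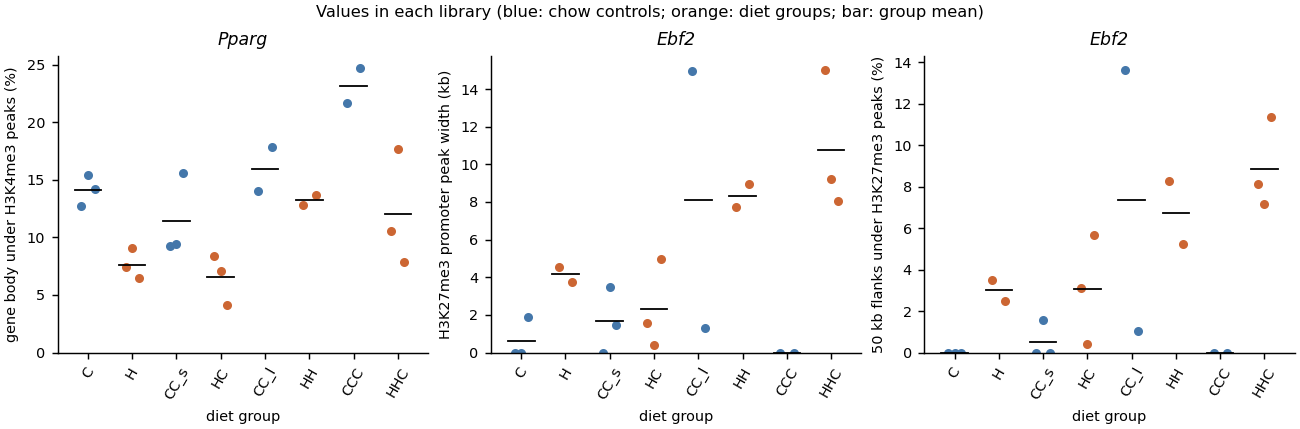
Values in each library (points) and group means (bars): the percentage of the Pparg body under H3K4me3 peaks, the H3K27me3 promoter peak width of Ebf2 in kb, and the percentage of the Ebf2 flanks under H3K27me3 peaks. Diet libraries (orange) lie below their controls (blue) in the first panel, and HHC lies above CCC in the other two.

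Around Pparg, H3K27me3 was seen in the flanks more than at the promoters, which had it in 1 control and 1 diet library. The flanks were 0% covered in all C and CC_l libraries, 0.483% and 0.764% covered in H, and 6.18% and 2.27% in HH. The obese difference was 2.42 points (exact permutation p = 0.0167, the smallest possible; 1.56% of genes called higher) and the diet-history difference 3.11 points (p = 0.0118, adjusted p = 0.111; 7.3% called higher). With 1 C or CC_l library fewer the obese p was 0.0556 or 0.233, and without either CCC library the diet-history p was 0.0898, all by exact permutation at the same differences. With flanks of 20 kb the diet-history p was 0.5 (exact permutation). A downstream region, chr6:115508395-115526312, was chosen after its values were seen. It carried H3K27ac in 21 of 21 libraries and H3K4me1 in 22 of 22. It carried H3K27me3 in 9 of 10 diet libraries and 1 of 10 controls, and H3K4me3 in 6 of 11 and 9 of 10. The region lies within the flanks, so its H3K27me3 peaks are part of the flank values above. How many other distal regions have such H3K27me3 counts was not determined. The 200 bases at the point where most libraries had H3K27ac held 2 C/EBP matches, against at least 1 in 10.9% of 59402 distal H3K27ac regions searched in the same way.
Pparg downstream, chr6:115523296-115523495, plus strand: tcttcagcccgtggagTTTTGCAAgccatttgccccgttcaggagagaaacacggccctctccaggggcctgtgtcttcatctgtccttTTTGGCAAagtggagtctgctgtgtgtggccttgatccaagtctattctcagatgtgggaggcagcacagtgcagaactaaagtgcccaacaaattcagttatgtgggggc

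H3K27me3 flank coverage was higher after weight loss at all 8 genes, by a median of 2.07 points against 0.315 points over all genes, and only Ebf2 was called. Cebpd, with no promoter H3K27me3 anywhere, had flank coverage in 1 HC library (0.953%) and 1 HHC library (1.25%).

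H3K27ac covered less of the bodies and flanks of several genes in obesity. Body coverage was called lower at Zfp467 (19.8% against 55.2%), Pparg (11.2% against 26.1%), Ebf1 (9.39% against 17.8%) and Ebf2 (2.87% against 10.5%), with exact permutation p of 0.005, 0.01, 0.03 and 0.015, beside 16.4% of all genes. Zfp467 was 40.2%, 45.2% and 46% covered in C, 9.10%, 8.71% and 12.3% in H, 62.7% and 70.3% in CC_l, and 15.6%, 35.8% and 37.4% in HH, without overlap. Ebf1 lost its call without either CC_l library (-7.48 and -9.25 points). Divided by genome coverage Zfp467 and Ebf1 were not called (p = 0.13 and 0.1, exact permutation). Over diet history Zfp467 (-19.7 points, p = 0.0165), Pparg (-10.7 points, p = 0.0085) and Ebf2 (-6.12 points, p = 0.00555) were lower by exact permutation, beside 7.81% of genes. Without CCC replicate 1 Zfp467 and Pparg lost these calls (-12.9 and -8.35 points). Flank coverage in obesity was called lower at 6 of 8 genes, Ebf1 and Zfp423 being the exceptions, beside 21.9% of all genes. The largest flank differences were at Cebpa (-17.4 points) and Pparg (-16.9 points). Divided by genome coverage Cebpa was 3.54 higher, as a ratio to that coverage, and Cebpb, Cebpd and Ebf2 were not called. Without CC_l replicate 1 all but Cebpd lost their calls (p = 0.05 to 0.163, exact permutation). Over diet history Pparg flanks differed by -13 points (exact permutation p = 0.0173; 7.02% of genes called lower), a call lost without CCC replicate 1 (-9.74 points, exact permutation p = 0.116).

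H3K4me1 gave fewer calls. In obesity body coverage was lower at Ebf2 (5.38% against 13.6%, exact permutation p = 0.01) and Ebf1 (11.2% against 20.7%, exact permutation p = 0.03), beside 5.01% of all genes. At Ebf2 it was 9.77%, 9.75% and 7.97% in C, 3.55%, 2.01% and 3.02% in H, 18.3% and 17.9% in CC_l, and 0.718%, 9.70% and 13.3% in HH, with no overlap. Leaving out CC_l replicate 2 took Ebf1 to -7.67 points (exact permutation p = 0.225), and C replicate 2, H replicate 1 or 2, or CC_l replicate 1 also ended its call. Over diet history H3K4me1 promoter width was lower at Zfp423 (7562 against 12260 bp, exact permutation p = 0.0226, beside 4% of genes), where leaving out CC_l replicate 2 or CCC replicate 3 gave -3716 and -3654 bp (exact permutation p = 0.0984 and 0.0726). Body coverage over diet history was lower at Ebf2 (-7.22 points, p = 0.0158) and Zfp467 (-14.5 points, p = 0.0389), both by exact permutation and beside 8.2% of genes. Ebf2 lost this call without CCC replicate 3 (-5.97 points) and Zfp467 without any 1 of 12 libraries (-11.2 to -15.7 points). Ebf2 flank coverage was 4.15% in controls and 2.37% with a diet history (exact permutation p = 0.0187; 9.05% of genes called lower), which was lost without CCC replicate 3 and became 0.0414 points with flanks of 20 kb.

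Distal regions were defined by merging the peaks of all libraries of a mark and leaving out those touching a promoter window. Within the 8 genes and their flanks lay 137 H3K27ac regions, 46 of them at Ebf1, and 125 H3K4me1 regions. Of the H3K27ac regions, 14.6% were marked in at least 75% of libraries, against 7.84% of all 59408 distal regions, and for H3K4me1 the shares were 28% and 12.5%. For H3K27ac, 8 regions were lost in H (2.98% of all distal regions were), 4 in HC (1.48%) and 4 in HH (2.55%), while 1 was gained in HH (0.791%) and 2 in HHC (2.44%). For H3K4me1, 9 regions were lost in HH, 5 at Ebf1 and 4 at Ebf2, when 3.48% of all regions were. Another 3 were lost in H (1.09%), 1 in HC (0.638%) and 1 in HHC (2.3%), and 1 was gained in HHC (3.05%).

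Regions marked in 21 of 21 H3K27ac libraries included chr11:44656759-44667585 in an Ebf1 intron, chr14:67187477-67190032 about 44.5 kb before Ebf2, and chr8:87928499-87946786 in a Zfp423 intron, which also had H3K4me1 in 22 of 22 libraries over chr8:87925665-87947056. Of the regions that varied, chr7:35075736-35078656, 42.1 kb before Cebpa, had H3K27ac in 3 of 3 C, 0 of 3 H, 2 of 2 CC_l and 0 of 3 HH libraries. It was marked in 1 of 2 CC_s, 0 of 3 HC, 0 of 2 CCC and 1 of 3 HHC libraries. In the Ebf2 intron, chr14:67414641-67416431 had H3K4me1 in 2 of 2 CC_l and 2 of 2 CCC libraries and in 0 of 3 HH and 0 of 3 HHC libraries, but only in 1 of 3 C and in none of H, CC_s and HC. An intronic Zfp423 region, chr8:87715497-87720625, had H3K27ac in every C and CC_s library and in no H or HC library, and in 0 of 2 CC_l but 3 of 3 HH libraries, so the direction differed between cohorts. The regions at Cebpa and Ebf2 are shown by the 200 bases marked in most libraries. The Ebf2 sequence held 1 C/EBP match, as did 11.5% of distal H3K4me1 regions at least once, and the Cebpa sequence held no match to the 4 motifs.
Cebpa upstream, chr7:35076642-35076841, plus strand: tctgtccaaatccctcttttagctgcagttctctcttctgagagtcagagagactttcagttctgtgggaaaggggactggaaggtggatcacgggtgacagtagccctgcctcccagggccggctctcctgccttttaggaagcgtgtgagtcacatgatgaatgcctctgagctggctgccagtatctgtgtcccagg
Ebf2 intron, chr14:67415410-67415609, plus strand: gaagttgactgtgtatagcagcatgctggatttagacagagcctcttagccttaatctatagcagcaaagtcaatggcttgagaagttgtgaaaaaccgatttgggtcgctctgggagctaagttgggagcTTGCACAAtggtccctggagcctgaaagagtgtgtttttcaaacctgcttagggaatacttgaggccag

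H3K27ac was also narrower at genes that PPARG and C/EBPA activate. Of 18 such targets, 13 had narrower promoter H3K27ac in obesity and none wider, beside 14.6% and 0.455% of all genes, with a median of -7128 bp against -339 bp over all genes. This list and those below were chosen with earlier results of these data known, and starting widths were not matched. The shares of all genes are therefore given as description only. Over diet history 10 of 18 were lower in H3K27ac (4.8% of all genes were), including Cidec (a lipid droplet protein, -7268 bp), Lep (leptin, -7072 bp) and Agpat2 (triglyceride synthesis, -6946 bp), and 10 of 18 in H3K4me3 (5.41% of all genes), including Lep (-6238 bp), Plin1 (perilipin, -5824 bp) and Cfd (adipsin, -4754 bp). After weight loss 0 of 18 were called for H3K27ac, at a median of -3243 bp. Lipe, a lipase, was wider in H3K4me1 (4517 bp, beside 9.15% of genes called higher). None of the genes named here passed adjustment over all genes by the exact permutation test.

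Other regulators that promote adipogenesis were more mixed. Of 18, 7 had lower H3K27ac width in obesity (Klf15, Stat5a, Nr3c1, Nfia, Nfib, Creb1 and Arntl) and 1 higher (E2f1), beside 14.6% and 0.455% of all genes, and after weight loss none of 17 was called. Over diet history Klf15, a Krüppel-like factor induced late in adipogenesis, was lower in H3K4me3 (-3770 bp), H3K27ac (-5441 bp) and H3K4me1 (-3331 bp). Beside these, 5.41%, 4.8% and 4% of genes were called lower. Klf15 was higher in H3K27me3 (1781 bp, beside 2.66% of genes). It was the only gene called for H3K27me3 among the 10 of these 18 that were tested over diet history. Klf4 was wider in H3K4me3 (1599 bp, beside 5.04% of genes). For H3K4me1 over diet history 4 of the 18 were higher (Klf4, Stat5b, Nr3c1 and Creb1) and 2 lower (Klf15 and Nfib), beside 9.15% and 4% of genes. Among 14 restraining regulators, 3 of the 12 tested had lower H3K27ac in obesity (Foxo1, Ddit3 and Nr2f2) beside 14.6% of all genes, and none had higher. The orphan nuclear receptor gene Nr2f2 was lower over diet history in H3K27ac (-6994 bp), H3K4me1 (-5102 bp) and H3K4me3 (-4663 bp), beside 4.8%, 4% and 5.41% of genes. Gata2 (-5907 bp) and Gata3 (-10447 bp) had narrower H3K27me3 (12.6% of genes did). Gata3 was wider in H3K4me3 (2047 bp, beside 5.04% of genes called higher). It is also a regulator of lymphocytes, and whether such cells contributed to its value was not tested.

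Genes with the most similar promoter marking were found over 32 group means, as the smallest mean absolute difference in the share of the promoter window covered. The closest to Pparg was Ppp3r1 (5.83 percentage points, where the median gene was 24.9 points away), to Cebpa Myc (5.29), to Cebpb Phlpp1 (5.89), to Cebpd Camk2d (5.03), to Ebf1 Rgcc (7.76), to Zfp423 Mtus1 (5.71) and to Zfp467 Cdc45 (5.26). Among the 8 genes themselves the closest were Pparg and Cebpd, 8.55 points apart. The groups share libraries and depth, so these distances are descriptions.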

How the data were processed

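The deposited files were 84 peak lists, 1 for each CUT&Tag library. Per the labels and the study's methods, the authors trimmed reads with Trim Galore 0.6.6, aligned them with Bowtie2 2.4.4 (mm10, GRCm38) and called peaks in each library alone with SEACR 1.3, stringent, at a threshold of 0.01 (the top 1% of signal blocks). The deposited signal columns give the total and highest signal of a peak, as whole numbers not scaled to depth; only the ranking by total signal was used. Read totals were not used here, so depth is known only through the number and length of peaks.

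For each gene and library, 3 values were computed: promoter peak width (summed full width of peaks with at least 1 bp in the windows), and the percent of the gene body and of its 50 kb flanks under peaks. The libraries are biological replicates, and all marks of a replicate came from the same fat sample. Each comparison used a two-sided exact permutation test (Python 3.11.15, numpy 2.4.6), with labels permuted within cohort and age on every protein-coding gene, and Benjamini-Hochberg adjustment over all genes tested within a mark. The study's count model could not be run on peak lists. The permutation test was tried on simulated promoter widths of H3K27ac and H3K27me3 over diet history, with a single large change added at chosen genes. Smaller changes and the other marks, measures and comparisons were not simulated. The 8 genes and the gene lists were chosen with earlier results of these data known. All 8 genes were named, with at most 3 genes of each other list per mark (those under p 0.05 over diet history with the largest difference), the genes nearest in promoter marking (that result for Ebf2 is not reported here), and per gene and enhancer mark the region marked in most libraries and up to 3 gained or lost. Alternatives were equal peak numbers, a stricter threshold, other windows, flanks, overlaps and scalings, the treatment labels, limma 3.58.1 (R 4.3.3), a replicate block and leaving out each library.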

Additional observations from a re-analysis of the deposited data

Results flagged for a closer look

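There were 7 promoter widths whose diet effect differed between the cohorts, by an exact permutation test of the difference itself (25-week minus 12-week); 60 such tests were run, with no adjustment among them. For H3K4me3 in obesity the effect was less negative or positive in the longer cohort at Pparg (a difference of 9852 bp, exact permutation p = 0.0333), Cebpa (8387 bp, p = 0.0167), Cebpb (8718 bp, p = 0.0167), Ebf1 (4706 bp, p = 0.0333) and Zfp423 (5953 bp, p = 0.0333). The same direction was called at 25.3% of 15167 genes and the opposite at 0%. By title, H3K4me3 peaks covered fewer Mb in every H library than in any C library. They covered more in both HH libraries than in either CC_l library. At Cebpb, the difference from control was -3773 bp in H and 4945 bp in HH. With the treatment labels 2 of the 5 kept p below 0.05, Pparg at 12050 bp and Zfp423 at 7788 bp, while Cebpa (4604 bp, p = 0.233), Cebpb (2244 bp, p = 0.633) and Ebf1 (3876 bp, p = 0.0667) were not called, by exact permutation. By covered bp Cebpa, Cebpb and Zfp423 were not called (p = 0.05 to 0.0667, exact permutation), nor was Cebpb with windows of 500 bp (p = 0.15, exact permutation). Divided by the median width of marked promoters in each library, none of the 5 was below 0.05. Leaving out CC_l replicate 1 or HH replicate 3 ended the call at Pparg and Ebf1, HH replicate 3 also at Cebpb, and C replicate 2, CC_l replicate 1 or HH replicate 2 at Zfp423, at 3767 to 8865 bp.

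After weight loss the cohorts differed for H3K4me3 at Cebpd (2332 bp, exact permutation p = 0.04; 1.31% of genes called so) and for H3K27ac at Zfp467 (3902 bp, exact permutation p = 0.02; 6.77% of genes). The first was also lost with the treatment labels (2080 bp, p = 0.07), windows of 500 bp (p = 0.115), covered bp of the window (500 bp, p = 0.4) and relative width (p = 0.365), by exact permutation, and the second by relative width (p = 0.07, exact permutation). The first was lost without any 1 of 9 libraries (1774 to 2693 bp) and the second without any 1 of 8 (2037 to 4282 bp).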

How the results depend on the processing

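Counts of calls at the 8 genes moved by more than 1.5 times under some alternatives. For promoter width, the 7 obese calls became 4 by covered bp of the window. The 2 weight-loss calls became 1 with equal numbers of peaks, 0 with windows of 500 bp, 1 by covered bp, 9 by relative width and 5 by limma, and the 7 diet-history calls became 12 by relative width. For gene bodies, the 2 weight-loss calls became 1 with equal peaks, 1 with treatment labels and 8 divided by genome coverage. For flanks, the 7 obese calls became 4 divided by genome coverage. The 1 weight-loss call became 3 with equal peaks, 2 at 20 kb, 7 divided by coverage and 5 by limma, and the 3 diet-history calls became 11 divided by coverage and 6 by limma. Gained or lost promoters went from 2 to 5 at a stricter threshold, distal regions from 34 to 21 with equal peaks, and cohort differences from 7 to 4 by covered bp and 1 by relative width. After adjustment over all genes, limma called 4 values at Pparg and Ebf2 where the exact permutation test called 0. The cause was not tested.

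The sign turned for Cebpb H3K27ac width in obesity with windows of 500 bp (1545 bp), Pparg H3K4me3 body in obesity (0.461 points) and Zfp467 H3K4me3 body over diet history (4.27 points) with treatment labels, Cebpd H3K4me3 body over diet history (2.90) and Cebpa H3K27ac flanks in obesity (3.54) divided by genome coverage, and Ebf2 H3K4me1 flanks over diet history at 20 kb (0.0414 points). Of 976 values of 46 single results, 792 kept direction and side of the threshold, 178 only direction.

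Leaving out 1 library gave 4 to 10 obese, 1 to 5 weight-loss and 6 to 9 diet-history calls for width, 6 to 10, 1 to 4 and 8 to 13 for bodies, 2 to 11, 1 to 2 and 2 to 7 for flanks, 2 to 6 promoters, 34 to 52 distal regions and 4 to 9 cohort differences. Only 4 width calls were left in obesity without H3K27ac CC_l replicate 2.

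Whether replicate numbers pair the samples was not settled. Of 36 same-number pairs, 8 had a correlation of deviations over 0.1 (range -0.504 to 0.22), but groups of so few libraries cannot decide this. With a replicate block the diet-history calls became 14 for width, 19 for bodies and 14 for flanks. Read depth is unknown, which limits what a missing peak shows.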
